A study of Oryza sativa with 4 samples.

Results

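Neighbouring genes on rice chromosomes 4 and 5 were compared between a wild type line and the tiller angle mutant bta1-1. The chromosome 4 block runs from locus OS04G0355401 to OS04G0370500 and the chromosome 5 block from OS05G0439200 to OS05G0449100. A gene was taken as a member when its reads over the 4 libraries summed to 40 or more, which gave 18 of the 44 loci listed in the first range and 43 of the 60 in the second. The 61 members are among 37830 features with a rice locus identifier and 91960 features in all. The ranges were chosen by the read counts of these same 4 libraries, because some of their genes differed between the lines, so every difference between the lines given here for a member is a description and carries no test.

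Transcripts were counted by RNA sequencing in rice (Oryza sativa, labelled japonica) seedlings aged 7 days, raised on a cycle of 14 h light with 10 h dark. The wild type (WT) is the line SN9816 and the mutant is bta1-1, with 2 libraries of each, called biological replicates in the design text. Nothing in the sources used here gives the parentage of bta1-1 or what it shares with SN9816 outside the mutated gene, and nothing says whether the seedlings of a library were pooled. The mutation and any other difference between the 2 lines therefore cannot be told apart.

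Rice locus identifiers carry the chromosome number and then a number that increases along that chromosome, so that loci with close numbers are close neighbours. Neighbouring genes are inherited together, and rice varieties are known to differ from the reference genome in stretches where genes are missing, added or changed in sequence. Reads are counted against the genes of 1 reference genome. A locus at 0 reads is one to which no read was assigned; a transcript that is not made and a transcript whose reads do not align to the reference gene give the same value here and cannot be told apart. The sources used here pair none of the members with a gene name or a function, so members are given by their identifiers.

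The libraries held 20334851 and 15093108 counted reads for WT libraries 1 and 2 and 17332067 and 17365812 for bta1-1 libraries 1 and 2. LAZY1 (OS11G0490600), known in rice for promoting shoot gravitropism and upright tillers and used here to check the labels, stood at 36.9 and 32.2 CPM (reads scaled to library size, with TMM factors between libraries) in WT and at 4.20 and 4.82 in bta1-1. Its log2 fold change was -2.93 (SE 0.26, adjusted p = 0.000445 by edgeR's quasi-likelihood test with Benjamini-Hochberg adjustment), so it was lower in the libraries labelled mutant. Leaf markers (6 of 6 detected) summed to between 19200 and 38000 CPM, with bta1-1 libraries 2 and 1 at the ends of that range, and root markers (4 of 4 detected) to between 624 and 994 CPM, so that both organs were represented. Whether the marker levels have a part in any difference given here was not tested. In seedling RNA, fewer cells of a type and less RNA per cell cannot be told apart. The shoot meristem gene OSH1 had 2 reads in bta1-1 library 2 and 0 elsewhere.

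Most members of the chromosome 5 block had similar levels in both lines, which did not hold for the chromosome 4 block. In each block a minority of the members was almost without reads in bta1-1. Of the 61 members, 37 had group means within 2-fold, against 86.6% of the 23056 loci with 40 or more reads. These were 7 of 18 members on chromosome 4 and 30 of 43 on chromosome 5. The mean was at least 4-fold lower in bta1-1 for 12 members (1.62% of all such loci) and at least 4-fold higher for 2 (2.34%). A gene was taken as read in one line alone when both libraries of that line held 20 or more reads and neither library of the other held more than 3. By this limit 9 members were read in WT alone (0.429% of all such loci) and 1 in bta1-1 alone (0.182%). By edgeR, fitted over all genes, 12 members were called lower (2.64% of all genes tested) and 2 higher (2.77%), either direction together being 5.41%. These shares come from the comparison that picked the ranges, and nothing is read from them.

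**Figure D1:**
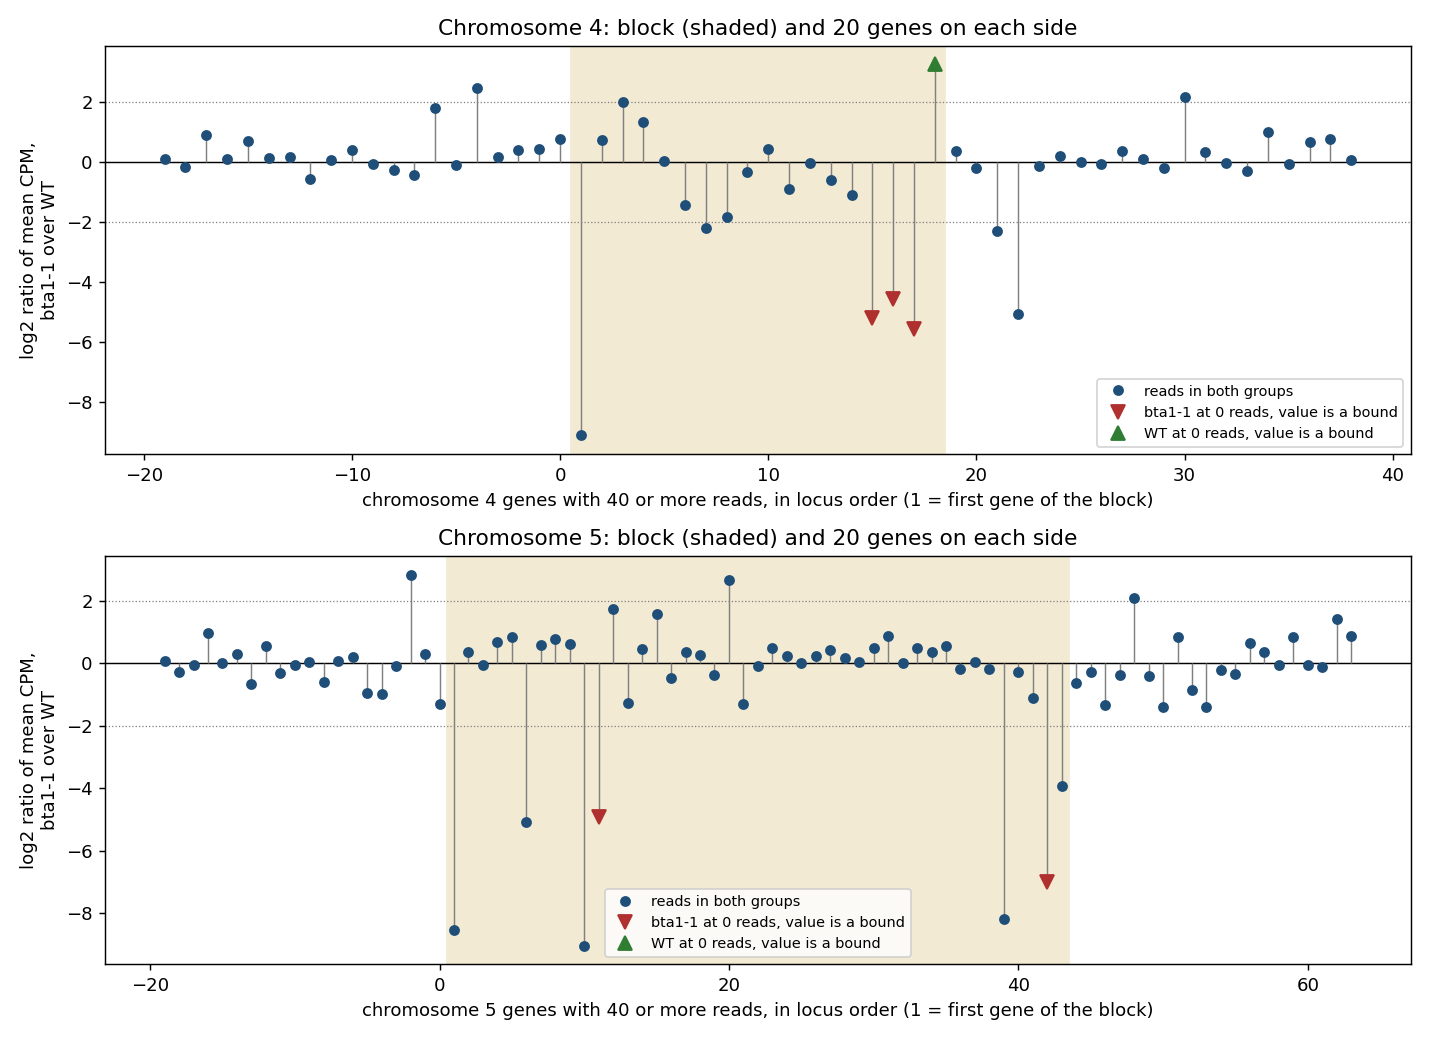
Log2 ratio of mean TMM-scaled CPM, bta1-1 over WT (vertical axis), for each gene in locus order (horizontal axis), with the 2 blocks shaded and 20 genes on each side; triangles are bounds for genes at 0 reads in one line, and dotted lines mark 4-fold. The 12 members at least 4-fold lower stand among members with smaller differences, towards both ends of each block and inside it.

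In the chromosome 4 block the genes with almost no reads in bta1-1 were the first member and 3 of the last 4. The block's 18 members comprised 5 at least 4-fold lower, 1 at least 4-fold higher, 5 between 2-fold and 4-fold, and 7 within 2-fold. The median log2 ratio of bta1-1 over WT was -0.76, against 0.00 over all loci with 40 reads, and it was -0.45 without bta1-1 library 1 and -1.36 without bta1-1 library 2. Groups did not overlap in CPM for 8 members that were lower (23.0% of all such loci) and 2 that were higher (24.2%). By edgeR 4 members were called lower (2.64% of all genes tested) and 1 higher (2.77%).

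The block opened with its largest measured ratio. OS04G0355401 had 596 and 484 reads in WT libraries 1 and 2 and 1 read in each bta1-1 library. Its level was 31.2 ± 3.63 CPM in WT and 0.0570 ± 0.0041 CPM in bta1-1 (SD, n = 2 each). Pooled over libraries, the WT to bta1-1 ratio of scaled reads was 540, with a 95% Clopper-Pearson interval of 149 to 4470 that covers counting error only, as do all such intervals and floors here.

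The 13 members that follow, from OS04G0357000 to OS04G0368800, were read in every library. OS04G0359100 had 380 and 295 reads in WT and 306 and 398 in bta1-1, and its CPM overlapped between the lines (log2 fold change 0.04, SE 0.23). The most abundant member by reads, OS04G0364800, had 434 and 321 against 648 and 377, also overlapping (0.45, SE 0.31). For OS04G0363700 the reads were 332 and 373 against 242 and 349, again overlapping (-0.33, SE 0.30). At OS04G0367400 there were 484 and 342 against 255 and 291, and here the lines did not overlap although the means lay within 2-fold (-0.60, SE 0.23).

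A run of 3 members in the middle of the block was lower in both bta1-1 libraries without being lost. OS04G0360500 had 180 and 45 reads in WT and 32 and 46 in bta1-1 (log2 fold change -1.43, SE 0.52), with WT library 1 far above the other 3 libraries. At OS04G0361500 the counts were 40 and 17 against 6 and 6 (-2.18, SE 0.57). Its neighbour OS04G0362375 had 77 and 67 against 27 and 14 (-1.82, SE 0.49). None of these 3 was called by edgeR in the fit used here. In the opposite direction OS04G0357200 had 19 and 8 reads in WT and 37 and 67 in bta1-1, without overlap (1.96, SE 0.51), and was not called either.

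Some members of low count varied as much within a line as between the lines. OS04G0366000 had 69 and 26 reads in WT against 16 and 75 in bta1-1, in library order, and its fitted change was near 0 (log2 -0.04, SE 0.65). The same ordering, with WT library 1 above library 2 and bta1-1 library 2 above library 1, held in 6 of the 18 members (33.3%), 15 of the 43 on chromosome 5 (34.9%) and 34.6% of all loci with 40 reads. OS04G0357300, chosen after its values were seen, had 13, 5, 6 and 39 reads in WT libraries 1 and 2 and bta1-1 libraries 1 and 2, so that 1 library set its mean. The remaining members with overlapping levels were OS04G0357000, with 6 and 16 against 25 and 15 reads, OS04G0365100, with 45 and 11 against 8 and 20, and OS04G0368800, with 88 and 34 against 12 and 44.

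At the far end of the block, reads in bta1-1 stopped over a stretch of adjacent loci. OS04G0369000 had 109 and 103 reads in WT and 0 in both bta1-1 libraries. For OS04G0370100 the WT counts were 116 and 35, and for OS04G0370300 they were 134 and 141, again with 0 in both bta1-1 libraries. Set against a floor of 3 reads per library, these genes were at least 36.3-fold, 23.4-fold and 47.6-fold lower in bta1-1. The 7 loci listed from OS04G0369000 to OS04G0370300, those under 40 reads included, together had 692 reads in WT and 2 in bta1-1, and 6 of the 7 had none in bta1-1. This stretch was chosen after its values were seen.

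The last member went the opposite way. OS04G0370500 had 0 reads in both WT libraries and 29 and 30 in bta1-1, or 1.68 ± 0.0805 CPM in bta1-1 (SD, n = 2), at least 9.51-fold higher against the same floor. It was the only locus of the 2031 on chromosome 4 with 40 reads that was read in bta1-1 alone, and it lies next to the stretch read in WT alone.

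**Figure D2:**
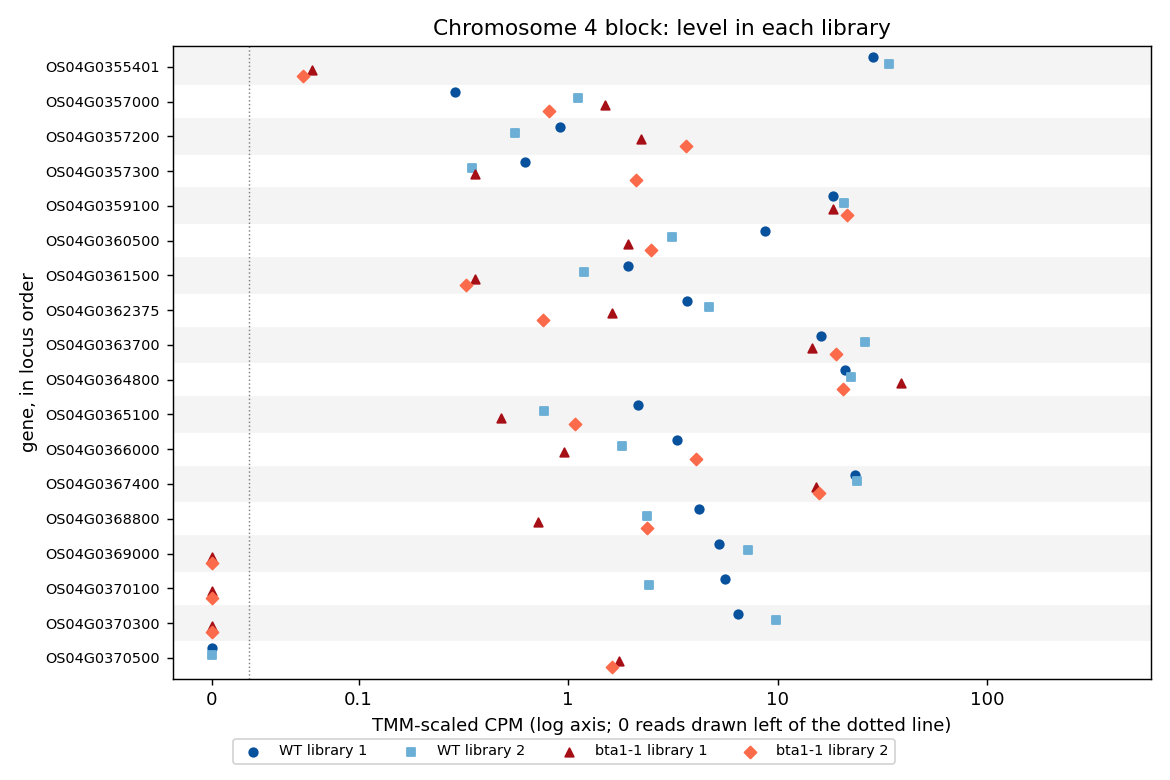
TMM-scaled CPM (horizontal log axis, 0 reads drawn left of the dotted line) of the 18 chromosome 4 members in locus order (vertical axis), 1 point per library. Both bta1-1 libraries lie at or near 0 for OS04G0355401 and for the 3 genes from OS04G0369000 to OS04G0370300, and both WT libraries lie at 0 for OS04G0370500.

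In the chromosome 5 block the strongly lower genes lay singly or side by side in pairs, among many genes within 2-fold. Of its 43 members, 7 were at least 4-fold lower, 1 was at least 4-fold higher, 5 lay between 2-fold and 4-fold, and 30 lay within 2-fold. The median log2 ratio was 0.17, and 0.31 among the 30 members within 2-fold. Without each library in turn the block's median ranged from 0.07, without WT library 2, to 0.22, without WT library 1. Groups did not overlap in CPM for 12 lower members, where 23.0% of all loci with 40 reads were lower without overlap, and for 17 higher members, against 24.2%. By edgeR 8 members were called lower (2.64% of all genes tested) and 1 higher (2.77%).

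The first member, OS05G0439200, had 581 and 565 reads in WT and 3 and 0 in bta1-1, a pooled WT to bta1-1 ratio of 382 (95% interval 130 to 1860). The third member, OS05G0439400, had 1649 and 1076 reads against 1334 and 1286, with CPM that overlapped. OS05G0440300 then had 218 and 150 reads in WT and 3 and 8 in bta1-1, a ratio of 33.5 (95% interval 18.5 to 67.7). Between these genes, OS05G0439300 had 18 and 10 against 16 and 19 reads and OS05G0440000 had 43 and 36 against 50 and 79. After them, OS05G0440800 had 482 and 270 against 435 and 675, and OS05G0440900 had 22 and 30 against 56 and 38. Both strongly lower genes were thus followed by members read in both lines. The loci directly after OS05G0440300, OS05G0440466 and OS05G0440632, fell under the limit of 40 reads and had no read in bta1-1.

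Among the lower members the highest WT count was at OS05G0441500, with 3020 and 2150 reads in WT and 3 and 7 in bta1-1. Its level was 148 ± 3.48 CPM in WT and 0.279 ± 0.141 CPM in bta1-1 (SD, n = 2 each), a pooled ratio of 517 (95% interval 281 to 1080). The next locus, OS05G0441750, had 133 and 59 reads in WT and 0 in both bta1-1 libraries, at least 30.7-fold lower. On the other side of the pair, OS05G0441400 had 389 and 390 reads in WT and 499 and 758 in bta1-1, so that its bta1-1 libraries were the higher ones.

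From OS05G0442000 to OS05G0447700 a run of members held none that was 4-fold lower in bta1-1. The most abundant were OS05G0447700, with 6519 and 4496 reads in WT and 5820 and 3684 in bta1-1, and OS05G0445500, with 4480 and 3143 against 3368 and 4294. Both overlapped between the lines (log2 fold changes -0.19, SE 0.33, and 0.00, SE 0.26). OS05G0443400 had 1817 and 906 against 1686 and 1694 reads, and after scaling its bta1-1 libraries were just above those of WT (0.36, SE 0.25). Other members near equality were OS05G0446800, with 412 and 265 against 301 and 383 reads, and OS05G0446500, with 453 and 233 against 258 and 431.

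Within that interval 1 member was much higher in bta1-1. OS05G0443800 had 66 and 58 reads in WT and 312 and 509 in bta1-1, or 3.61 ± 0.620 against 23.1 ± 6.26 CPM (SD, n = 2 each; log2 fold change 2.69, SE 0.32). Its neighbour OS05G0443900 had 272 and 216 against 109 and 89 reads (-1.31, SE 0.30), so that 2 adjacent members differed in opposite directions. The edgeR call of OS05G0443900 was lost without WT library 1, without WT library 2, without bta1-1 library 2 and with limma on FPKM, while its log2 fold change stayed between -1.55 and -1.06 over all alternatives run. The other members between 2-fold and 4-fold here were OS05G0442000 at 1.77 (SE 0.57), OS05G0442700 at 1.56 (SE 0.48) and OS05G0442400 at -1.28 (SE 0.40). None of these was called by edgeR in the fit used here, and all of them were called with no filter. OS05G0442000 moved to 1.12 without WT library 1 and 2.77 without WT library 2, and OS05G0442700 to 0.86 without bta1-1 library 1 and 2.06 without bta1-1 library 2. Both were called by DESeq2.

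Some members within 2-fold were higher in bta1-1 without overlap. OS05G0440250 had 54 and 11 reads in WT and 45 and 63 in bta1-1, and OS05G0446600 had 95 and 29 against 87 and 127. In both genes WT library 2 was the lowest of the 4, and the log2 fold changes were 0.82 (SE 0.56) and 0.86 (SE 0.45). Of the 30 members within 2-fold, 14 were higher without overlap and 2 lower. Over all loci with 40 reads the shares were 24.2% and 23.0%. Those shares include loci beyond 2-fold, so they are not a like base for the 30, and no shift is read from them. The 2 lower were OS05G0443300, with 729 and 416 reads against 374 and 432, and OS05G0443700, with 348 and 211 against 202 and 229.

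Among the higher ones, OS05G0444300 had 609 and 523 reads in WT and 628 and 1017 in bta1-1 (log2 fold change 0.50, SE 0.26). OS05G0446900 had 298 and 191 against 334 and 351 (0.50, SE 0.24), and OS05G0447000, its next neighbour, had 367 and 304 against 388 and 486 (0.35, SE 0.23). The short locus OS05G0446550 had 102 and 111 against 161 and 150 (0.50, SE 0.34). Each of these 4 differences was at most a little over 2 of its own standard errors, and none was called.

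Several other members of the run overlapped between the lines. OS05G0443500 had 942 and 515 reads against 674 and 1066, OS05G0445900 had 511 and 379 against 561 and 481, and OS05G0444200 had 318 and 125 against 211 and 187. Among the least read genes, OS05G0447580, with 36 and 7 against 18 and 22, and OS05G0447500, with 27 and 18 against 16 and 24, overlapped too. OS05G0447200, with 13 and 13 against 20 and 20, did not overlap, and neither did OS05G0442550, with 84 and 38 against 72 and 89, nor OS05G0446300, with 613 and 442 against 530 and 663. At these counts a 2-fold difference lies within the spread between libraries of 1 line for OS05G0447580.

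The block closed with a second group of strongly lower genes. OS05G0447800 had 204 and 113 reads in WT and 1 and 0 in bta1-1 (pooled ratio 317, 95% interval 56.5 to 12600). OS05G0448300, the next member, had 585 and 636 against 407 and 642 reads and overlapped. OS05G0448675 had 131 and 73 against 48 and 44 (log2 fold change -1.12, SE 0.37).

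Its neighbour OS05G0448700 had 334 and 403 reads in WT and 0 in both bta1-1 libraries, at least 129-fold lower and the highest bound among the members. The last member, OS05G0449100, had 58 and 35 against 3 and 3 (pooled ratio 15.5, 95% interval 6.86 to 43.3).

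**Figure D3:**
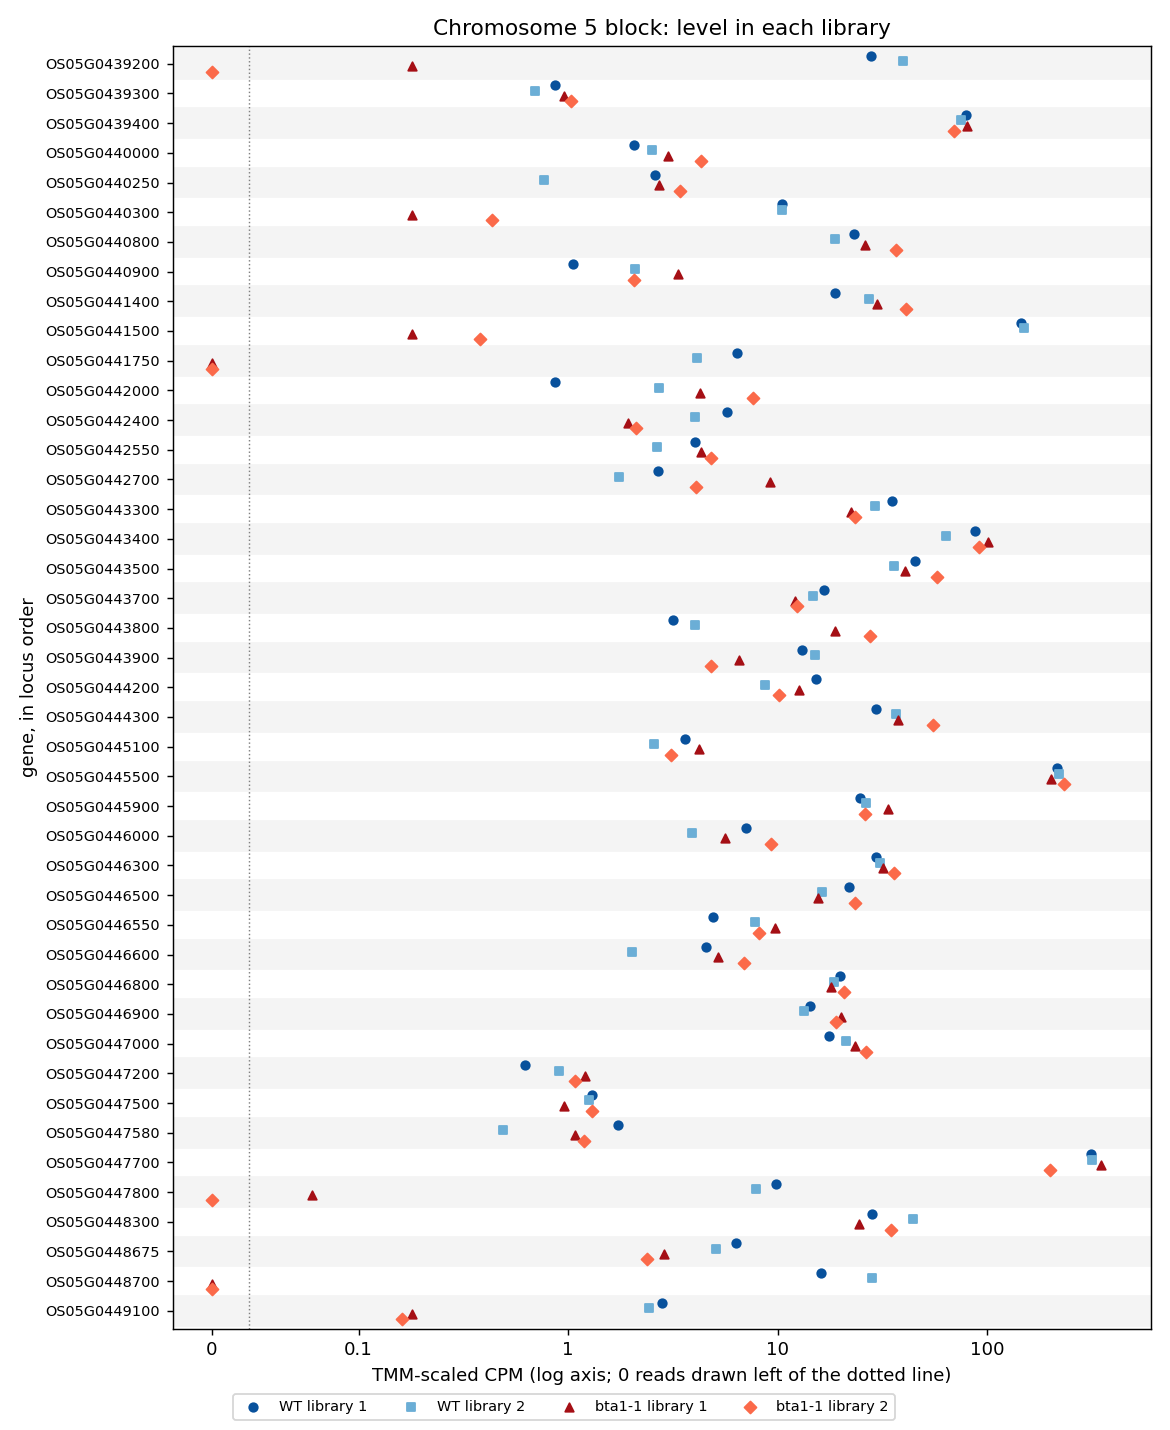
TMM-scaled CPM (horizontal log axis, 0 reads drawn left of the dotted line) of the 43 chromosome 5 members in locus order (vertical axis), 1 point per library. The 4 libraries lie close together for most genes, and both bta1-1 libraries lie far to the left at 7 genes.

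Levels can be compared between genes per length, on the deposited FPKM (fragments per kilobase of gene, scaled to library size). The members ranged in WT from 0 (OS04G0370500) to 38.6 FPKM in the chromosome 4 block and from 0.356 to 345 FPKM in the chromosome 5 block. The 5 chromosome 4 members at least 4-fold lower in bta1-1 had a median of 3.64 FPKM in WT, and the 7 members within 2-fold had a median of 10.3. On chromosome 5 the 7 lower members had a median of 12.1 FPKM in WT and the 30 within 2-fold a median of 8.21. In both blocks the highest and the lowest WT level belonged to other members. A gene almost without reads in bta1-1 could become a member only through its WT reads. The read limit for members therefore kept such genes from the lowest WT counts. Their place above the lowest level and the medians in WT are shaped by that limit, and nothing is read from them.

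Of single genes, OS05G0441500 went from 115 ± 3.40 to 0.228 ± 0.129 FPKM and OS05G0439200 from 41.2 ± 7.81 to 0.108 ± 0.153 FPKM (SD, n = 2 each). At OS05G0448700 the WT level was 33.3 ± 11.2 FPKM, and at OS04G0355401 it was 16.6 ± 1.06 FPKM. The higher genes OS05G0443800 and OS04G0370500 reached 12.1 ± 4.09 and 1.17 ± 0.0265 FPKM in bta1-1. The lengths implied by the deposited tables ran from 495 to 2015 bases for the 7 lower members of chromosome 5 (median 802) and from 330 to 4060 bases for the 30 within 2-fold (median 1787.5). On chromosome 4 the 5 lower members had a median length of 1844 bases and the 7 within 2-fold one of 1313, so that the order of the medians was the reverse.

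**Figure D4:**
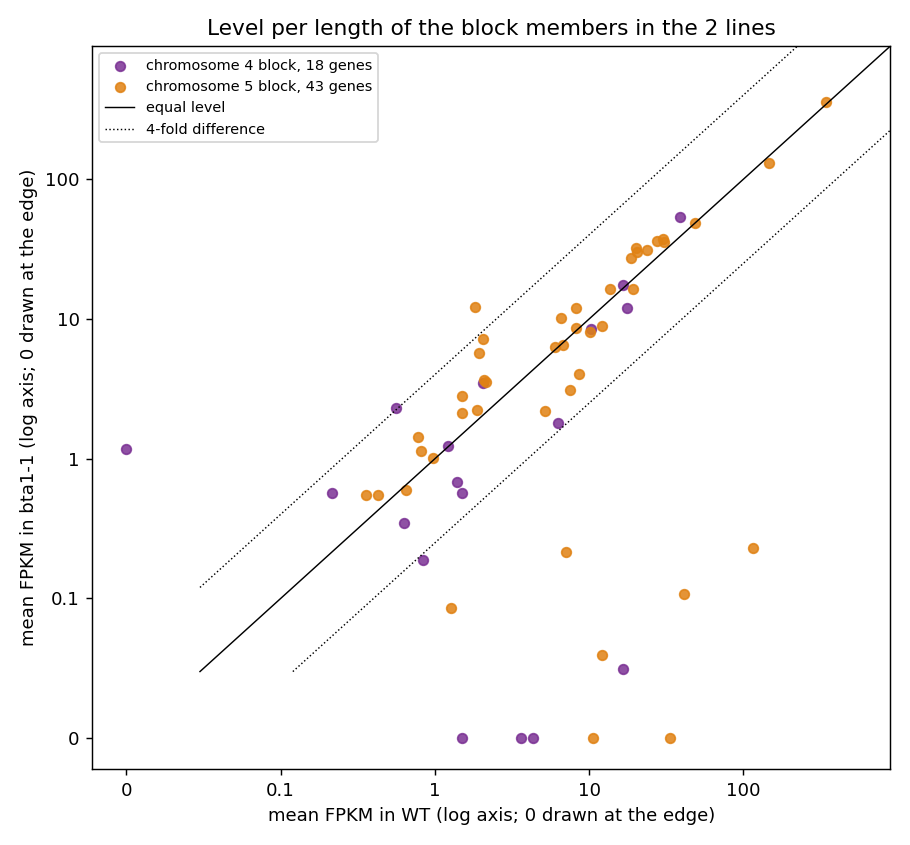
Mean FPKM in bta1-1 (vertical log axis) against WT (horizontal log axis) for the 61 members, 1 point per gene, with 0 drawn at the edge; lines mark equal levels and a 4-fold difference. Most genes lie between the 4-fold lines, and those under the lower line had WT levels from 0.844 to 115 FPKM.

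Loci of the ranges with fewer than 40 reads were not members and are given for completeness. In the chromosome 4 range 26 loci fell under the limit, of which 13 had no read in any library. Of the other 13, 6 had reads in WT only, 0 in bta1-1 only and 7 in both. Among the 6, only 2 summed to 10 reads or more. In the chromosome 5 range 17 fell under it, of which 7 had no read, 3 had reads in WT only, 0 in bta1-1 only and 7 in both. Among the 3, only 2 summed to 10 reads or more. The like shares over all loci under 40 reads were not computed, so nothing is read from these counts.

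Just outside the limit of 40 reads, OS04G0369600 summed to 37 (27 and 10 in WT, 0 and 0 in bta1-1) and OS04G0359900 also to 37 (7 and 12 against 12 and 6). On chromosome 5 OS05G0440100 summed to 34 (13 and 7 against 8 and 6) and OS05G0440632 to 28 (18 and 10 against 0 and 0). OS05G0440632 and OS05G0440300 bracket a stretch of 3 loci, chosen after its values were seen, that held 406 reads in WT and 11 in bta1-1. Just inside the limit, the members with the fewest reads were OS04G0370500 and OS04G0357000 on chromosome 4, with sums of 59 and 62, and OS05G0439300 and OS05G0447200 on chromosome 5, with 63 and 66.

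The edges of the chromosome 4 block were unlike each other. Before it, OS04G0354600, the nearest locus with 40 reads, had 2365 and 1994 reads in WT and 3561 and 3981 in bta1-1 (log2 fold change 0.76, SE 0.26). OS04G0353600 had 4205 and 3189 against 4248 and 5676, and OS04G0354200 had 23 and 3 against 6 and 26. Of the 20 loci before the block none was 4-fold lower and 1 was at least 4-fold higher, OS04G0352400, with 7 and 3 against 21 and 33 reads. By edgeR 1 was called higher, OS04G0350300, with 109 and 60 against 195 and 394. The median log2 ratio of the 20 was 0.15.

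After it, OS04G0370600 had 29 and 18 reads against 24 and 37 and OS04G0370900 had 95 and 30 against 39 and 63. The third locus, OS04G0371000, had 54 and 15 against 7 and 6 (log2 fold change -2.30, SE 0.63). The fourth, OS04G0372201, chosen after its values were seen, had 246 and 189 against 7 and 6, a pooled ratio of 33.5 (95% interval 19.4 to 63.4). Loci at least 4-fold lower in bta1-1 thus also lay past the limit of the chromosome 4 range. Over the 20 loci after the block the median log2 ratio was 0.05, with 2 at least 4-fold lower and 1 at least 4-fold higher. By edgeR 1 of them was called lower, OS04G0372201 (log2 fold change -5.05, SE 0.41), and 0 were called higher.

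The chromosome 5 block had no neighbour among the 20 on either side that was 4-fold lower. Before it, OS05G0439100 had 356 and 376 reads in WT and 182 and 121 in bta1-1 (log2 fold change -1.31, SE 0.34), and OS05G0438800 had 2179 and 1423 against 2864 and 1474. The third locus out, OS05G0438700, was higher in bta1-1, with 486 and 100 against 1122 and 2770 reads. After it, OS05G0449200 had 2686 and 1315 against 1142 and 1392, OS05G0449500 had 4018 and 2528 against 2459 and 2868, and OS05G0449600 had 846 and 637 against 314 and 280 (-1.32, SE 0.23). On each side 1 of the 20 was at least 4-fold higher and called higher by edgeR, OS05G0438700 before the block and OS05G0450600 after it. The log2 fold change of OS05G0438700 was 2.83 (SE 0.57), with 2.17 without bta1-1 library 2 and 3.95 without WT library 1. Its call was lost with the replicate block, with limma on log2(FPKM + 0.1) and with limma on log2(FPKM + 1) over all genes. The reads of OS05G0450600 were 67 and 48 in WT and 161 and 342 in bta1-1. OS05G0449600 was called lower. The median log2 ratios were -0.02 before and -0.15 after.

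Counts along the whole chromosomes place the blocks, again as a description. All 4 loci of chromosome 4 that were read in WT alone lay in the block, out of 2031 loci with 40 reads. On chromosome 5, 5 of the 11 lay in the block, out of 1879. Genes described beyond the rule for named genes, OS05G0439400, OS05G0441400 and OS05G0448300 among them, were chosen after their values were seen. Loci at least 4-fold lower numbered 28 of 2013 on chromosome 4 outside the block and 24 of 1836 on chromosome 5. Within the blocks these figures were 5 of 18 and 7 of 43.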

How the data were processed

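The authors deposited raw counts for each gene, and their FPKM for the same genes form a second deposited table. Dividing one by the other gave a whole gene length within 0.01 base in 100% of values, so both hold the same reads. Build IRGSP-1.0 and the tools HTSeq 0.6.1, TopHat2 2.0.12 and Bowtie2 2.2.3 are named, without their roles, per the submitters' processing notes. Annotation release and strand setting: not given in the sources used here. Hence overlapping genes and near-identical copies are uncertain. The files hold no coordinates, and the gene table at hand (assembly ASM3414082v1) matched 0 of the 61 members.

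Counts were fitted with edgeR 4.0.16 in R 4.3.3 (TMM, filterByExpr with minimum count 10 and total 15, robust quasi-likelihood, group as the only term, Benjamini-Hochberg over 24396 genes, called at adjusted p under 0.05). All 61 members passed the filter and were in this fit, where their calls are a description. Ratios of group means use TMM-scaled CPM, with a group at 0 reads set to 3 reads per library. Log2 fold changes with SE are edgeR's. The named genes were LAZY1 and, per block, the 15 largest changes without overlap, the first and last member, the 3 most abundant, the 3 nearest to no change, the 3 nearest loci on each side and the 2 just under 40 reads. The members and lists were chosen with earlier results of these data known. The fit was tested on simulated data. Replicates of a line were not copies of one library (chi-square per degree of freedom 33.4 in WT and 46.2 in bta1-1). With 2 libraries per line, SDs measure only the spread between these samples. Alternatives were DESeq2 1.42.0, library size scaling, no filter, limma 3.58.1 on log2(FPKM + 1) or log2(FPKM + 0.1), replicate blocks, leaving out each library and other read limits.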

Additional observations from a re-analysis of the deposited data

How the results depend on the processing

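Of the 14 members called by edgeR, 14 were also called with DESeq2, with library size scaling, with no filter and without bta1-1 library 1. There were 13 with the replicate number as a block (OS05G0443900 being the one not called), on log2(FPKM + 1) or log2(FPKM + 0.1) for genes kept, and without any 1 of the other 3 libraries. On log2(FPKM + 1) over all genes 8 were called. The members were picked by the counts of these same libraries, which every setting refits. Calls kept over the settings therefore describe the fits and are no test of the members. The calls in the chromosome 4 block numbered 5, against 9 with no filter and 2 on log2(FPKM + 1) over all genes, and 5 to 7 without a library in turn. In the chromosome 5 block they numbered 9, against 12 with no filter, 11 with DESeq2 and 6 on log2(FPKM + 1) over all genes. Chromosome 5 members read in one line alone numbered 5, against 3 at a limit of at least 10 reads against at most 1, and 5 to 7 without a library in turn. Of the members that edgeR did not call, OS04G0357200, OS04G0360500, OS04G0361500, OS04G0362375, OS05G0442000, OS05G0442400 and OS05G0442700 were called with no filter. DESeq2 also called OS04G0362375, OS05G0442000 and OS05G0442700, and limma on genes kept called OS04G0362375. Leaving out 1 library gave a call for OS04G0357200 and OS04G0362375 (bta1-1 library 1), OS04G0360500 (WT library 2), OS05G0442000 (WT library 2 or bta1-1 library 1) and OS05G0442700 (bta1-1 library 2). The chromosome 4 median of -0.76 ranged from -1.36 to -0.45 without a library in turn. The chromosome 5 median of 0.17 was 0.25 on log2(FPKM + 0.1), 0.03 with loci of 20 reads or more, and 0.07 to 0.22 without a library in turn. The filter and the blocks act on the test and give no other median. Over all genes 1319 were called (675 higher, 644 lower), against 2904 (1582 and 1322) with no filter and 169 (44 and 125) on log2(FPKM + 1) over all genes. DESeq2 called 1027 higher. Without a library in turn the total was 1005 to 2056 (the highest without bta1-1 library 1), with 401 (without WT library 2) to 1202 (without bta1-1 library 1) higher and 482 to 854 lower. The chromosome 5 median was 0.11 without either bta1-1 library.

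Equal replicate numbers did not mark a shared source in the labels, and the library 1 minus library 2 differences of the lines correlated at -0.415 across 24396 genes. With the replicate block 774 genes were called (359 higher, 415 lower), 5 of them in the chromosome 4 block and 8 in the chromosome 5 block. With the crossed replicate block, added after seeing the data, 3744 were called (1972 higher, 1772 lower), 10 and 13 of them in the blocks. None of the 564 alternative values computed for the 47 named genes turned a called difference around, which only values of called genes could do. LAZY1 aside, 85 of the values lay at least the SE of the main fit away from it. Some uncalled genes changed sign, such as OS04G0364800, at 0.45 and at -0.09 without bta1-1 library 1. Depth limits the members with few reads, and a locus at 0 in both libraries of a line may lie anywhere under the floor of 3 reads.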
